A study of Mus musculus with 32 samples.

Results

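The lungs of tumor-free mice were compared between 4 *Clic4* knockout (KO) and 4 wildtype (WT) animals, the 8 baseline lungs among the 32 RNA-sequenced samples of the study. The 8 lungs were taken by their labels, and the comparison was read across all 16029 genes with enough counts to be tested out of 29511 in the count table. The study asked what loss of host *Clic4* does to primary tumors of implanted breast cancer cells and to the lungs before metastases form, and these lungs show the genotype difference with no tumor present. The other lungs used here came from 12 separate tumor-bearing mice, 6 KO and 6 WT, taken 14 days after implantation of 6DT1 cells.

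All mice were young adult virgin females of strain FVB/N. The KO is constitutive and in the germline, with the region around exon 2 of *Clic4* excised in every cell, so no cell type was singled out. The allele was made on a mixed background and then backcrossed to FVB/N, and KO and WT mice came from crosses of heterozygous parents. The study used littermates, but which of these samples were littermates is not named in the sources used here. RNA was taken from lung tissue, a mixture of cell types, in which fewer cells of a type and less RNA per cell cannot be told apart. Whether it came from the whole organ or from single lobes is not given in the sources used here. Each lung is labelled as its own sample, and p-values below measure the spread between these samples.

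*Clic4* encodes a member of the chloride intracellular channel family, small proteins that occur in a soluble form and in membranes and share the fold of the omega class of glutathione transferases. In vitro they act as glutathione-dependent oxidoreductases. CLIC4 is abundant in endothelial cells, takes part in the formation of vessel tubes, and is known to enter the nucleus and to enhance signalling by TGF-beta through SMAD proteins.

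The part of the gene that the KO removes is a small piece of its mRNA. Exon 2 lies on chromosome 4 of GRCm38 from 135238862 to 135238971 on the minus strand, and all of its 110 bases are coding. It makes up 2.67% of the 4119 bases of the main transcript. It is shown here because the deposited values are sums over the whole gene, to which the other 5 exons contribute as well. In the sequence, from GENCODE M21 and written 5′ to 3′, capitals mark exon 2, and the flanking lower-case letters are the 30 coding bases on each side in exons 1 and 3.

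*Clic4* exon 2: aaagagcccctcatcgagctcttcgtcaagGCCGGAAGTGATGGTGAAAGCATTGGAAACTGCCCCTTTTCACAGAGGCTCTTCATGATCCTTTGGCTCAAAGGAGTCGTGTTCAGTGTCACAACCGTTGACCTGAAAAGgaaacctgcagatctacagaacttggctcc

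The length of exon 2 leaves a remainder of 2 when divided into codons. If exon 1 were joined to exon 3 in the reference transcript, the reading frame would run for 52 codons to its first stop, against 253 codons in the intact transcript. Whether such a transcript was present cannot be read from gene sums.

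*Clic4* RNA was lower in every KO lung than in every WT lung, but it was far from absent. According to the study, the reads left in KO lungs map outside the excised region. It detected no CLIC4 protein in lung fibroblasts isolated from KO mice. The FPKM of *Clic4* (fragments scaled for transcript length and for the fragments mapped) was 56.9, 55.4, 67.6 and 65.0 in the KO lungs. In the WT lungs it was 175, 160, 161 and 164. The groups did not overlap, and the KO mean of 61.2 ± 5.98 (SD, n = 4) was 37.1% of the WT mean of 165 ± 6.61 (SD, n = 4). On the counts, *Clic4* fell by 1.45 on the log2 scale (SE 0.11, edgeR's quasi-likelihood test, Benjamini-Hochberg adjusted p, or FDR, 1.73e-07). In the tumor-bearing mice the log2 difference was -1.49, and the difference between these 2 effects had an FDR of 0.972.

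Of the 4 other *Clic* genes measured, none was called. *Clic5*, a paralog of alveolar type 1 cells, had the highest level of the family, at 189 ± 3.38 FPKM in KO and 188 ± 2.54 in WT lungs (SD, n = 4 each). *Clic3* was at 97.4 ± 6.90 in KO and 103 ± 5.86 in WT lungs, and *Clic1* at 77.1 ± 2.96 and 80.6 ± 8.83. *Clic6*, a longer family member, was at 7.28 ± 0.824 in KO and 6.14 ± 1.03 in WT lungs, with single lungs that overlapped. Two-sided exact permutation tests of log2(FPKM + 1) gave p = 0.0286 for *Clic4*, the smallest value that 4 against 4 can give, and 0.143 to 0.600 for the paralogs. After adjustment over the 5 genes the *Clic4* value was 0.143 in that exact test. The edgeR FDRs of the paralogs were between 0.423 and 0.986.

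**Figure D1:**
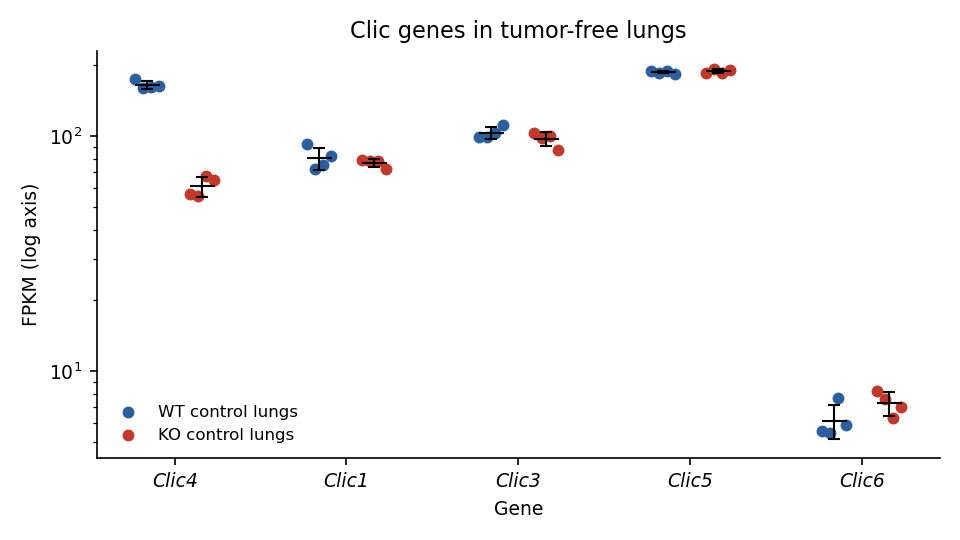
FPKM of the 5 *Clic* genes on a log axis in the 4 WT (blue) and 4 KO (red) tumor-free lungs; points are single lungs, and the black bar and whiskers are the mean and SD. *Clic4* separates the genotypes (55.4 to 67.6 against 160 to 175), and the 4 paralogs overlap between them.

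The 8 lungs held 5056592 to 8318711 counts assigned to genes. The defining genes of lung were high in all of them, among them the surfactant gene *Sftpc* (4604 to 5896 CPM, counts scaled to library size), the club cell secretoglobin *Scgb1a1* and the type 1 cell gene *Ager*, and markers of heart muscle such as *Myh6* were present in all 8 as well (302 to 508 CPM). *Xist* was high in all 8 lungs, with 6076 to 10288 counts, while of the Y-linked genes *Uty* had 0 to 8 and *Kdm5d* 27 to 51. No pair of lungs within a group agreed within sampling noise.

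The libraries of the 2 genotypes differed in how they covered genes of high and low GC content. Within each library, the slope of gene level on exon GC content was taken as log2 change per 10 percentage points of GC, relative to the mean of the 8 lungs. The slopes were 0.0055, -0.140, -0.112 and -0.0358 in the KO lungs and 0.0303, 0.0969, 0.143 and 0.0111 in the WT lungs. Every KO slope was below every WT slope, although KO replicate 1 and WT replicate 4 lay close together and KO replicates 2 and 3 and WT replicates 2 and 3 were far apart. The difference in means was -0.141 (KO -0.0704 ± 0.0670, WT 0.0704 ± 0.0610, SD, n = 4 each; two-sided exact permutation test p = 0.0286, the smallest possible). The slopes also ranged widely within the 14-day lungs, from -0.144 to 0.0889, but there the KO and WT means differed by 0.0164 (exact permutation p = 0.690).

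The trend reached the fold changes of genes. The median log2 difference between KO and WT was 0.113 in the lowest of 10 equal bins of GC content (median 38.8%) and -0.205 in the highest (median 58.6%), with a median of -0.004 over all genes. Across 15950 genes, which are not independent replicates, the correlation of log2 difference with GC content was -0.320 in tumor-free lungs and 0.044 in the 14-day lungs. With an offset for a smooth GC trend fitted in each library, it was -0.006. The share of counts from mitochondrial genes was 8.63 to 9.69% in KO and 7.78 to 8.60% in WT lungs, also with no overlap (exact permutation p = 0.0286). The 13 respiratory chain genes of mitochondrial DNA, at a median GC of 37.1%, made up a small part of it. They summed to 8102 to 8652 CPM in KO and 7894 to 8107 CPM in WT lungs. Their median log2 difference was 0.007, with 7 above 0 and 6 below. The share from 7S RNAs was 8.60 to 10.3% in KO and 10.1 to 11.8% in WT lungs (exact permutation p = 0.0571), and the slope on gene length did not separate the groups (exact permutation p = 0.371). A library property that follows genotype in this way and an effect of genotype on GC-rich transcripts cannot be told apart from these 8 lungs, so values with the offset are given beside the main ones for many results below.

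**Figure D2:**
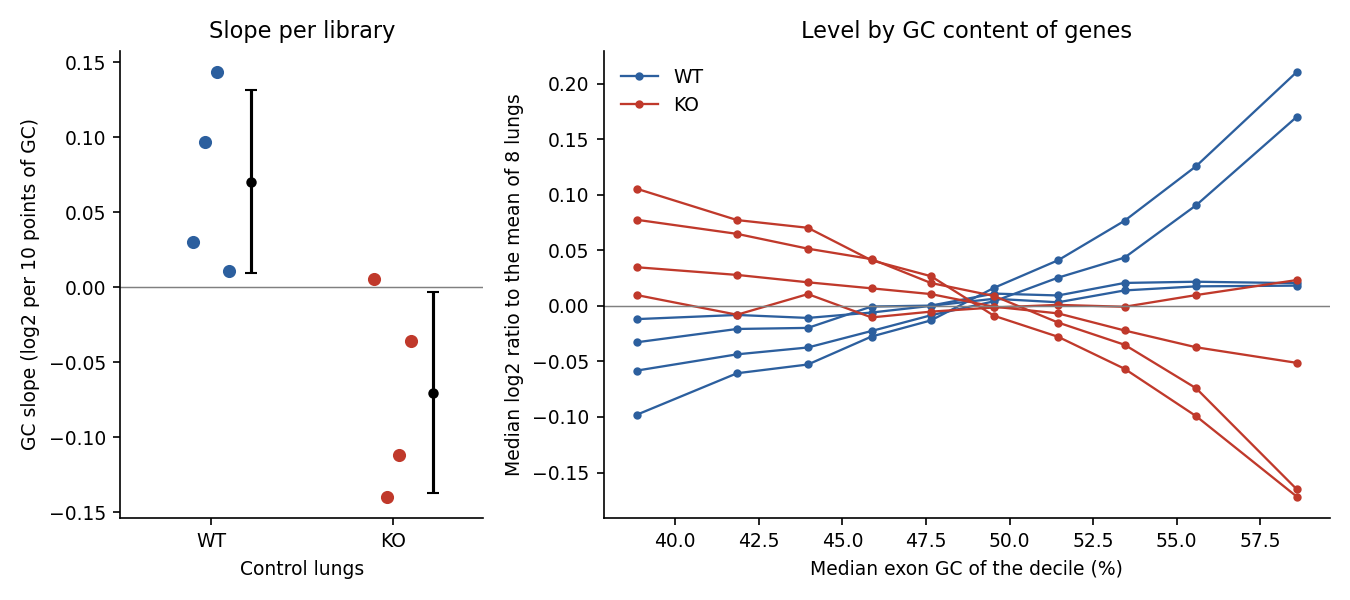
Left, GC slope of each tumor-free lung library (log2 per 10 percentage points of GC) with group mean and SD; right, median log2 ratio of each library to the mean of the 8 lungs in 10 bins of genes ordered by exon GC content. Toward GC-rich genes the KO lines (red) of replicates 2, 3 and 4 fall and that of replicate 1 ends slightly above 0, while the WT lines (blue) rise, and the lines of replicates 2 and 3 of each genotype lie farthest from 0.

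Genes were called at an FDR under 0.25 and a change of at least 1.5-fold. By this rule 37 genes were called, which is 0.231% of the genes tested. Of these, 14 were higher (0.0873%) and 23 lower (0.143%) in KO lungs. Apart from *Clic4* most were low in expression, with a median of 6.03 CPM. With the GC offset 5 genes were called, 1 higher (*Sepn1*) and 4 lower (*Clic4*, *Pnrc2*, *Klk1* and *Rpl15-ps3*), which is 0.0312% of genes. With 0.231% of all genes called in the main fit, most gene lists below would hold none. A list with none called is therefore not read as a result. At an FDR under 0.05 with no fold limit, 3 genes were called (0.0187%), *Clic4*, *Pnrc2* and *Sepn1*, and each of these also passed with the offset. *Sepn1* had an FDR of 0.112 in a fit of the 8 lungs alone, 0.124 with no filter on low counts and 0.297 with the replicate number as a block, and with 1 lung left out it passed only without KO replicate 2 or WT replicate 2, the FDR being 0.0919 to 0.233 without any of the other 6 lungs. *Pnrc2* had an FDR of 0.113 with the block, and of 0.0552, 0.0560 and 0.0548 without KO replicate 3, KO replicate 4 and WT replicate 1. These short lists were named after their values were seen. *Pnrc2* and *Sepn1* both lie within 1 Mb of the start of *Clic4* on chromosome 4.

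The 37 genes divided by GC content. Of the 23 lower genes, 20 had a GC content above the median of all genes tested (48.6%), with a median of 56.8%. Of the 14 higher genes, 1 did, and their median was 43.1%. All 37 kept their sign with the offset, but the median size of the log2 change went from 0.887 to 0.767 and 4 of the 37 were still called. The count also turned on single libraries. It was 2 without KO replicate 2, 6 without KO replicate 3, 8 without KO replicate 4, 4 without WT replicate 2, 2 without WT replicate 3, 69 without KO replicate 1 and 76 without WT replicate 4.

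To show what these contrasts in composition look like, a stretch of 90 bases from the middle of the coding sequence (GENCODE M21, 5′ to 3′) is given for the 2 lower and the 2 higher protein-coding genes at the extremes of GC content among those called, with G and C in capitals. *Foxp4*, a forkhead transcription factor of lung epithelium, lies on chromosome 17 from 47867133 to 47924645, and *Crocc*, which encodes the ciliary rootlet protein rootletin, on chromosome 4 from 141016637 to 141060550. Their exons are 63.1% and 62.6% GC. *Zfp429*, a zinc finger gene, lies on chromosome 13 from 67387905 to 67399819, and *Cyp7b1*, an oxysterol hydroxylase, on chromosome 3 from 18071950 to 18243338. Their exons are 42.2% and 42.5% GC.

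*Foxp4*: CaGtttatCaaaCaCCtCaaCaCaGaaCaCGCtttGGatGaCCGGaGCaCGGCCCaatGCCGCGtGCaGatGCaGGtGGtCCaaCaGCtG

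*Crocc*: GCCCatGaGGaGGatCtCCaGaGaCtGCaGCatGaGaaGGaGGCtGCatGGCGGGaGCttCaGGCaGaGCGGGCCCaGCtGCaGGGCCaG

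*Zfp429*: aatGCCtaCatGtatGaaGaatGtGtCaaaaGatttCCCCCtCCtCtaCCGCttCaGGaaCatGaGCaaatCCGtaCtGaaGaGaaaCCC

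*Cyp7b1*: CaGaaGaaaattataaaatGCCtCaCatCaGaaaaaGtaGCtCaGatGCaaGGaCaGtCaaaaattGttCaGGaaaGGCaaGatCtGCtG

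*Foxp4* was at 17.9, 13.8, 15.0 and 15.2 CPM in KO lungs and 21.9, 26.9, 29.6 and 19.9 in WT lungs. The groups did not overlap, and KO replicate 2 and WT replicate 3, the libraries with the most extreme GC slopes, held the lowest and the highest value. As *Foxp4* was picked for its high GC content, nothing is read from that match. The log2 difference was -0.66 (SE 0.15, edgeR FDR 0.168), and -0.37 with the offset (FDR 0.604). *Crocc* moved likewise, from -0.89 (FDR 0.220) to -0.62 with the offset (FDR 0.589). *Zfp429* was at 5.22, 7.60, 5.81 and 7.96 CPM in KO lungs and 3.74, 4.18, 4.15 and 4.05 in WT lungs, with no overlap. Its log2 difference of 0.72 (SE 0.17, FDR 0.168) was 0.64 with the offset (FDR 0.434). *Cyp7b1* was called at 0.81 (SE 0.21, FDR 0.220), and its value with the offset was 0.74 (FDR 0.533).

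*Pnrc2* and *Sepn1* went against the GC trend, and their differences were larger with the offset. *Pnrc2*, which encodes an adaptor of mRNA decapping and nonsense-mediated decay, lies on chromosome 4 from 135870918 to 135873850, is poor in GC (41.8%), and was lower in KO lungs. Its level was 41.8, 41.7, 38.7 and 40.0 CPM in KO lungs and 65.8, 51.8, 59.3 and 65.9 in WT lungs. The groups did not overlap and the KO lungs were close to one another. The log2 difference was -0.59 (SE 0.09, edgeR FDR 0.00642), and -0.67 with the offset (FDR 0.000342). *Sepn1*, which encodes selenoprotein N of the endoplasmic reticulum, lies on chromosome 4 from 134537892 to 134552166, is GC-rich (56.9%), and was higher in KO lungs. Its level was 42.3, 33.9, 42.3 and 41.3 CPM in KO lungs and 28.5, 32.0, 27.0 and 26.6 in WT lungs. KO replicate 2 came nearest to the WT lungs, without overlap. The log2 difference was 0.49 (SE 0.08, FDR 0.0442), and 0.64 with the offset (FDR 0.000349).

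Both genes are neighbours of *Clic4*, at 0.657 Mb and 0.676 Mb from its start. *Zfp46*, a zinc finger gene 1.07 Mb away, was at 18.6 to 24.1 CPM in KO and 27.2 to 32.4 in WT lungs, a log2 difference of -0.46 (FDR 0.108, and 0.240 with the offset). *Zfp46* was named after its values were seen, and its difference did not reach 1.5-fold.

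These 3 neighbours differed in the same direction in the 12 tumor-bearing mice, which are other animals. At 14 days *Pnrc2* was at 36.1 to 44.0 CPM in KO and 62.8 to 80.2 in WT lungs, a log2 difference of -0.75 (FDR 1.93e-06). *Sepn1* was at 44.5 to 49.6 in KO and 23.8 to 29.3 in WT lungs, a difference of 0.80 (FDR 7.57e-07). *Zfp46* differed by -0.48 (FDR 0.00829). The interaction test of these 3 effects between tumor-free and tumor-bearing mice gave FDRs between 0.438 and 0.983.

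More widely, 238 genes tested start within 10 Mb of *Clic4*. Of these, 4 were called, all lower in KO lungs, where 0.143% of all genes were called lower, namely *Pnrc2*, *Tmem39b*, *Crocc* and *Myom3*, a gene of the sarcomere M-band. *Tmem39b* (-1.07, SE 0.26, FDR 0.220), *Crocc* and *Myom3* (-1.04, SE 0.28, FDR 0.220) are all GC-rich, were not called with the offset (FDR 0.533 to 0.589), and differed by -0.23, -0.21 and -0.16 at 14 days (FDR 0.830 to 0.914). At an unadjusted p under 0.05, 43 of the 238 passed (18.1%), against 11.5% of the genes outside the region and 11.6% of all genes tested. With the offset 33 passed (13.9%), against 7.16% outside and 7.26% of all genes. At 14 days 40 passed (16.8%), against 8.21% outside and 8.34% of all genes. Within 2 Mb, 16 of 67 passed (23.9%), and 17 of 67 at 14 days (25.4%). Strain sequence that stayed with the excised allele through backcrossing and loss of *Clic4* itself cannot be told apart in this design.

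**Figure D3:**
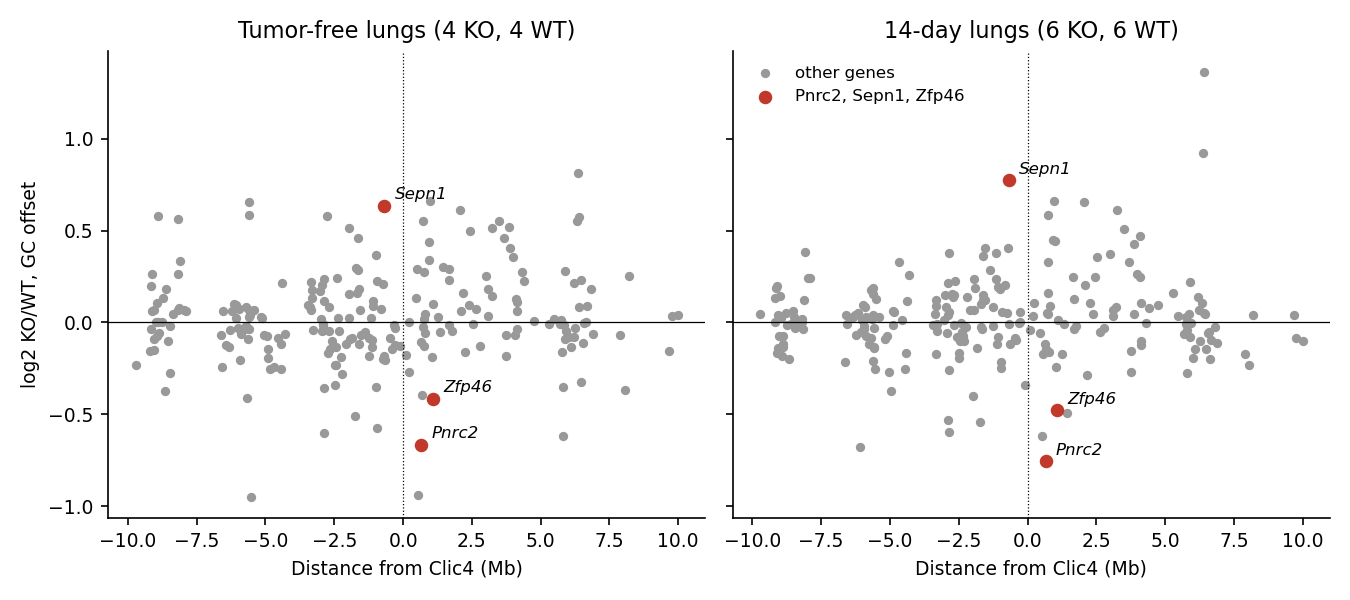
Log2 difference between KO and WT lungs, with the GC offset, of genes within 10 Mb of *Clic4* against their distance from it (Mb, *Clic4* itself left out), in tumor-free lungs (left) and 14-day lungs (right). Red points are *Pnrc2*, *Sepn1* and *Zfp46*, and grey points the other genes; *Sepn1* is high and *Pnrc2* and *Zfp46* are low in both panels.

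Away from chromosome 4, *Klk1* had the largest change of a called gene. *Klk1* encodes tissue kallikrein, a protease that releases kinins, and lies on chromosome 7 from 44225360 to 44229618. It was at 0.746, 0.974, 1.29 and 0.569 CPM in KO lungs and 2.89, 3.09, 3.21 and 2.75 in WT lungs. The groups stood well apart, at low levels. The log2 difference was -1.69 (SE 0.32, edgeR FDR 0.0891), and -1.63 with the offset (FDR 0.144). At 14 days it was 0.12 (FDR 0.944), and the test of the difference between the 2 effects gave an FDR of 0.274.

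*Rpl15-ps3*, a processed pseudogene on chromosome 9 from 22185607 to 22186221, was at 12.5, 12.7, 19.5 and 18.2 CPM in KO lungs and 24.6, 31.1, 29.2 and 35.6 in WT lungs. The groups did not overlap, with a log2 difference of -0.93 (SE 0.19, FDR 0.108), and -0.86 with the offset (FDR 0.240). At 14 days the difference was 0.40 (SE 0.15, FDR 0.475), and the 2 effects differed by -1.33 (interaction FDR 0.157), the 1 called gene with an interaction FDR under 0.25. Reads of the pseudogene can be shared with the parent gene *Rpl15* and with other copies, so its value is uncertain. The DNA polymerase gene *Polm* (-0.76, FDR 0.137), the Golgi gene *Zfpl1* (-0.65, FDR 0.168), the endocytic adaptor *Pacsin1* (-1.55, FDR 0.220) and *Foxm1* (-1.12, FDR 0.220), which drives genes of cell division, complete the 10 lower genes with the smallest p, and with the offset their FDRs were 0.496 to 0.533.

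Among the higher genes, *Chil3* was the most abundant. *Chil3* encodes a chitinase-like protein that alveolar macrophages secrete, and lies on chromosome 3 from 106147554 to 106167564. It was at 487, 344, 508 and 323 CPM in KO lungs and 239, 143, 217 and 300 in WT lungs. Every KO lung was above every WT lung, with KO replicate 4 and WT replicate 4 close together. The log2 difference was 0.89 (SE 0.20, edgeR FDR 0.168), and 0.84 with the offset (FDR 0.360). At 14 days *Chil3* was at 256 to 514 CPM in KO and 201 to 315 in WT lungs, a log2 difference of 0.49 (SE 0.17, FDR 0.377).

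The other 9 higher genes with the smallest p were low in expression. They were *Zfp429*, *Cyp7b1*, the tetraspanin uroplakin gene *Upk1b* (0.62, SE 0.17, FDR 0.224), the lactate transporter gene *Slc5a12* (0.83, SE 0.23, FDR 0.249), and 5 predicted or noncoding genes, *A930006L05Rik*, *RP23-334M3.6*, *Gm36940*, *RP23-285C21.7* and *Gm37186*, with log2 differences of 0.68 to 1.17. *A930006L05Rik* is annotated as antisense, and whether strand was used in counting is not given in the sources used here, so its reads and those of a gene on the other strand may not be separated. *Slc5a12* was at 5.41, 5.26, 4.68 and 7.02 CPM in KO lungs and 3.86, 2.73, 2.83 and 2.92 in WT lungs, with no overlap, and differed by 0.62 at 14 days (FDR 0.296). With the offset none of the 14 higher genes was called, the smallest FDR being 0.350.

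Of the 37 genes, 35 did not overlap between the groups, where 3.82% of all genes had every KO lung above every WT lung and 3.78% every KO lung below. As the same values made the calls, nothing is read from that count. In the 14-day lungs, 21 of the 37 differed in the same direction, 7 of the 14 higher and 14 of the 23 lower, and 2 had an FDR under 0.05 there, *Clic4* and *Pnrc2*. Over all genes tested, 15 (0.0936%) had an FDR under 0.05 at 14 days. The median log2 difference of the 37 at 14 days was -0.016, and 0.002 over all genes.

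**Figure D4:**
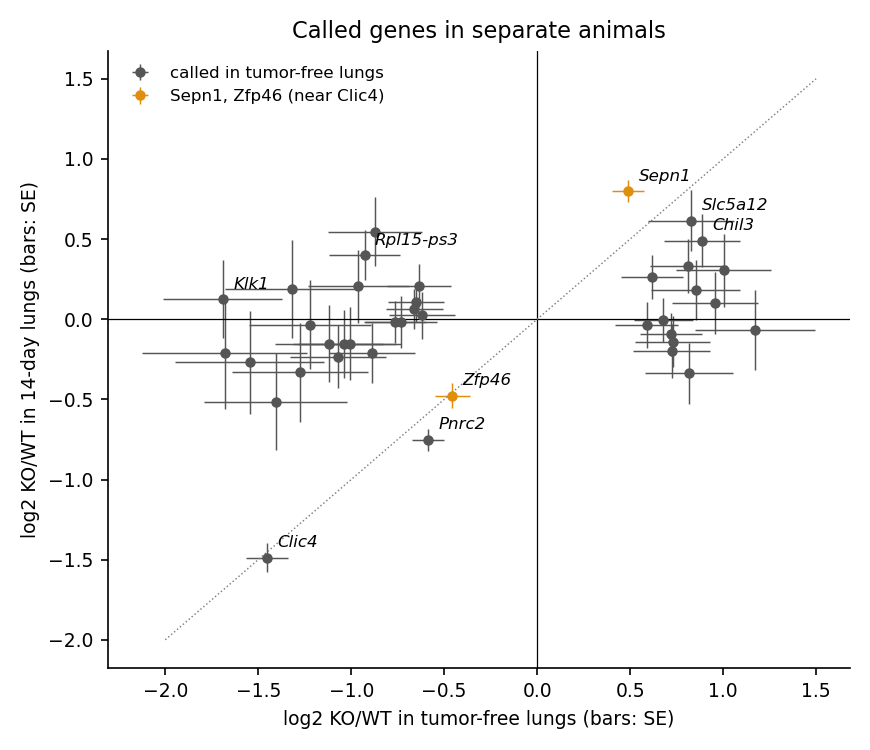
Log2 difference between KO and WT in 14-day lungs against that in tumor-free lungs for the 37 genes called in tumor-free lungs (grey) and for *Sepn1* and *Zfp46* (orange), with SE bars; the dotted line marks equal differences. *Clic4* and *Pnrc2* and both orange genes lie near the line, and most other called genes lie near 0 at 14 days.

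Listed genes of cell division and of histones had differences below 0 almost throughout, with few members called. Of 22 cell cycle genes tested, 1 was called, *Cdk1*, the kinase of mitotic entry, where 0.143% of all genes were called lower, and 21 of the 22 log2 differences were below 0, with a median of -0.46 against -0.004 for all genes. *Cdk1* was at 2.05, 2.34, 1.45 and 0.948 CPM in KO lungs and 6.99, 4.73, 2.64 and 3.24 in WT lungs, a log2 difference of -1.41 (SE 0.38, edgeR FDR 0.232). These levels rest on few counts, and WT replicate 3 was close to KO replicate 2. At an unadjusted p under 0.05, 7 of the 22 were lower and 0 higher, among them the centromere histone gene *Cenpa* (-0.55) and the replication helicase genes *Mcm2* (-0.55), *Mcm3*, *Mcm5* and *Mcm6*. That share stood against 6.26% lower over all genes. The count was also 7 with the offset, against 3.54% lower over all genes, which left the median at -0.48, while *Cdk1* then had an FDR of 0.496. At 14 days the median was 0.09.

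Among 12 histone genes tested, all 12 differences were below 0, with a median of -0.54, and 7 had an unadjusted p under 0.05, against 6.26% lower over all genes. *Hist1h4h* was the 1 listed gene called, against 0.143% of all genes called lower (-1.28, SE 0.36, FDR 0.249) at 5.04, 5.06, 3.23 and 5.12 CPM in KO lungs and 8.92, 13.1, 15.7 and 7.29 in WT lungs. The linker histone genes *Hist1h1d* (-0.91, FDR 0.280), *Hist1h1e* (-0.85, FDR 0.335) and *Hist1h1c* (-0.68, FDR 0.370) did not overlap between groups but did not pass. Over all genes, 3.78% had every KO lung below every WT lung. The replacement histone genes, which are not tied to DNA replication, stood at -0.24 (*H3f3b*), -0.11 (*H2afz*) and -0.02 (*H3f3a*). Outside the list, *Hist1h3c*, *Hist1h4n* and *Hist1h2bk* were also called lower, as was *Pkmyt1*, a kinase that restrains CDK1, and these 4 were named after their values were seen. Histone genes share near-identical sequence, so counts may be split between copies. With the offset the median was -0.51, 8 were lower at an unadjusted p under 0.05, against 3.54% over all genes, and none was called, and at 14 days the median was -0.02.

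Markers of lymphocytes showed the same direction in these lungs. All 8 natural killer (NK) cell markers had differences below 0, with a median of -0.77, and 1 was called, where 0.143% of all genes were called lower. This was *Prf1*, which encodes the pore-forming protein perforin. *Prf1* was at 8.21, 9.54, 10.97 and 4.36 CPM in KO lungs and 14.9, 15.5, 15.9 and 20.9 in WT lungs. The groups did not overlap, with KO replicate 4 lowest and WT replicate 4 highest, and the log2 difference was -1.01 (SE 0.28, FDR 0.233; -0.93 and FDR 0.533 with the offset). All 8 B cell markers (median -0.69) and all 10 T cell markers (median -0.44) also had differences below 0, and none was called. At an unadjusted p under 0.05, 3 NK, 3 B cell and 3 T cell markers were lower, against 6.26% of all genes, and with the offset 2, 3 and 1, against 3.54%. The antigen receptor component *Cd79a* was at 2.84 to 9.74 CPM in KO and 12.6 to 17.1 in WT lungs (-1.11, FDR 0.282), and the B cell kinase gene *Blk* differed by -1.11 (FDR 0.314). The T cell receptor component *Cd3e* (-0.69, FDR 0.328) and the T cell factor *Tcf7* (-0.36, FDR 0.385) did not pass either.

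The summed level of the NK markers was 21.5 to 67.0 CPM in KO (median 56.0) and 63.0 to 127 in WT lungs (median 74.7). That of the B cell markers was 36.7 to 93.0 (median 84.5) and 89.1 to 140 (median 117), and that of the T cell markers 55.8 to 83.6 (median 66.4) and 69.7 to 105 (median 91.3). In each case the groups overlapped, and the lowest KO lung lay far below the KO median for NK and B cell markers. No defining marker of these cells was at 0 in all lungs. With the offset the medians were -0.82, -0.60 and -0.44, and at 14 days they were -0.23, 0.34 and 0.11. The part of lymphocyte content in the lower cell cycle and histone values was not tested.

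**Figure D5:**
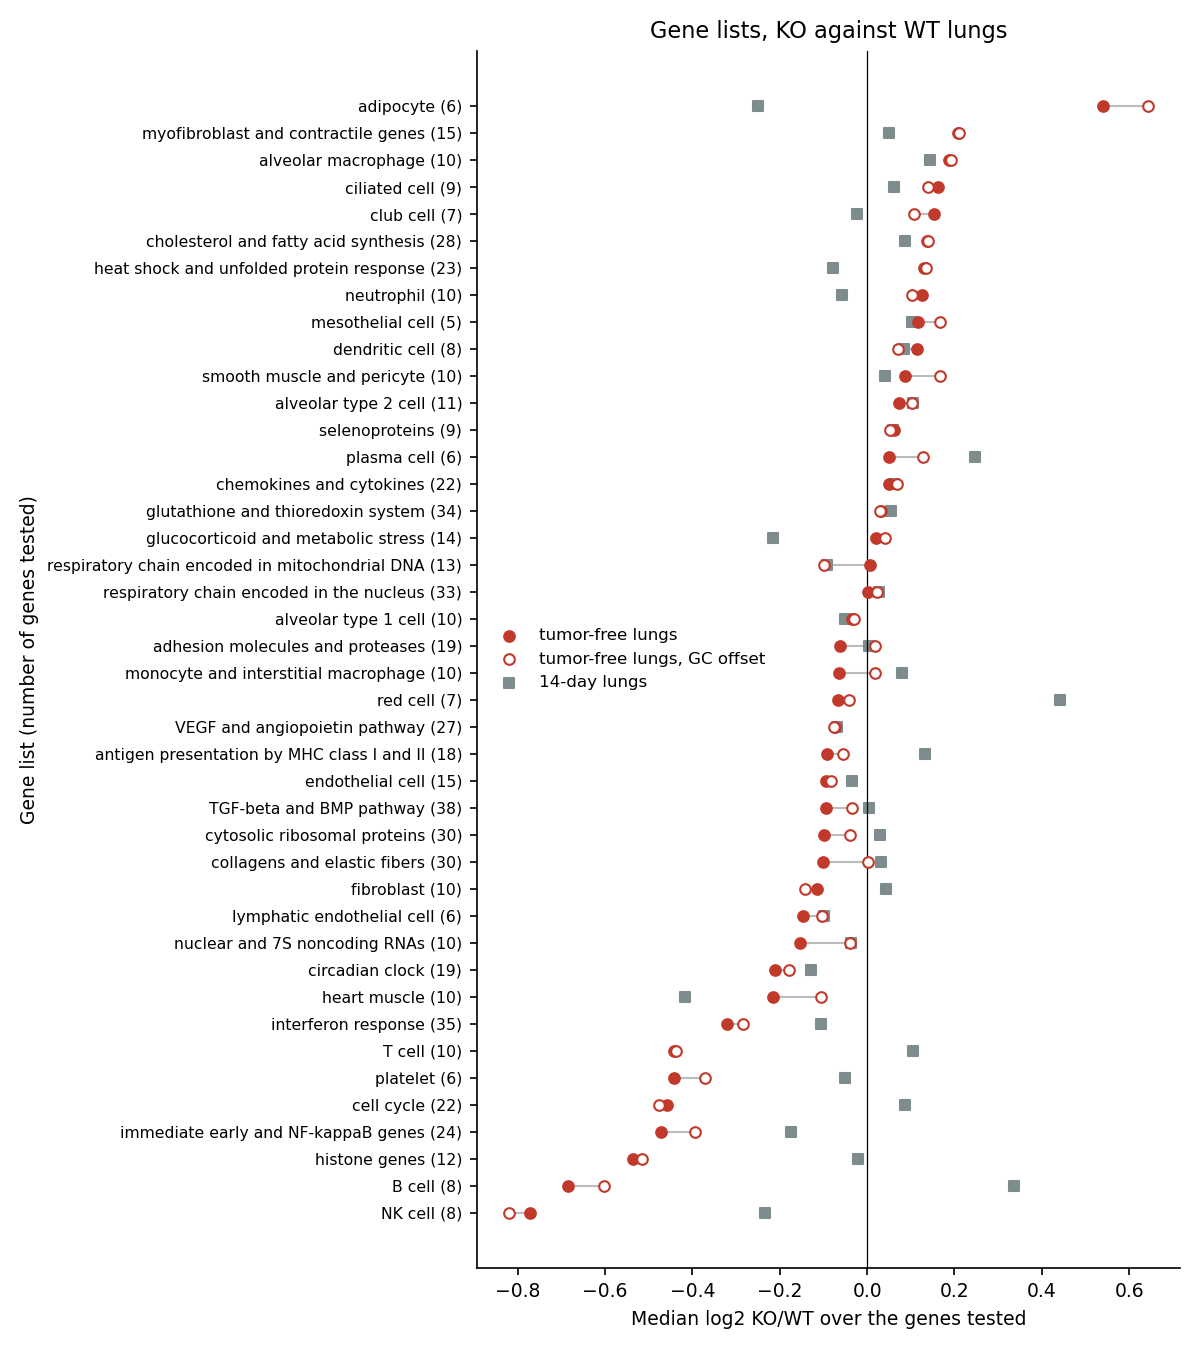
Median log2 difference between KO and WT of each gene list with at least 5 genes tested (the *Clic* genes left out), with the number of genes tested in brackets, in tumor-free lungs without (filled circles) and with the GC offset (open circles) and in 14-day lungs (squares). NK cell, B cell, histone, immediate early, cell cycle, platelet and T cell lists have the lowest medians in tumor-free lungs and the adipocyte list the highest, in both settings, and the squares of these lists lie nearer to 0.

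Of 24 immediate early and NF-kappaB genes, which respond quickly to many stimuli, 21 were below 0 with a median of -0.47, and none was called. The flow-responsive factor *Klf2* was at 40.4 to 55.2 CPM in KO and 72.5 to 106 in WT lungs (-0.71, FDR 0.267), but -0.45 with the offset (FDR 0.706). *Jun* differed by -0.67 (FDR 0.420). At an unadjusted p under 0.05, 4 of the 24 were lower, against 6.26% of all genes, and 0 with the offset, against 3.54%, while the median with the offset was -0.39. Of 35 interferon response genes, 31 were below 0 with a median of -0.32 (-0.28 with the offset), and none was called. At an unadjusted p under 0.05 only 1 of the 35 was lower, fewer than the 6.26% over all genes, and the median of their summed level was 1214 CPM in KO lungs (854 to 1609) and 1189 CPM in WT lungs (1169 to 2412), with overlap. *Irf8*, a factor of myeloid and B cell development, was at 36.6 to 41.9 CPM in KO and 51.7 to 63.8 in WT lungs (-0.51, SE 0.15, FDR 0.249), just short of 1.5-fold. *Irf7* ranged from 9.10 to 25.7 in KO and 17.1 to 84.9 in WT lungs (-1.28, FDR 0.578), and the groups overlapped.

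Markers of alveolar macrophages and adipocytes mostly had differences above 0. Of the 10 macrophage markers 9, *Chil3* among them, had differences above 0, with a median of 0.19 with and without the offset, and their summed level was 719 to 932 CPM in KO and 423 to 683 in WT lungs. The mannose receptor *Mrc1* was at 0.31 (FDR 0.289) and *Marco* at -0.15 (FDR 0.859), and *Chil3* made up the largest share of the summed level. All 6 adipocyte markers tested were above 0 with a median of 0.54 (0.64 with the offset) and none was called. Their summed level was 52.5 to 99.2 CPM in KO and 32.4 to 45.8 in WT lungs. The fatty acid binding gene *Fabp4*, which alveolar macrophages also express, was at 17.5 to 33.2 CPM in KO and 10.2 to 16.2 in WT lungs (0.77, FDR 0.369), and the lipid droplet gene *Cidec* at 0.43 (FDR 0.403). At 14 days the adipocyte median was -0.25.

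The TGF-beta and BMP pathway, in which CLIC4 is known to act, showed no called gene among 38, where 0.231% of all genes were called. The latent TGF-beta binding protein gene *Ltbp4* was at 144 to 187 CPM in KO and 188 to 276 in WT lungs (-0.43, SE 0.13, FDR 0.249), and the SMAD repressor gene *Ski* at 109 to 123 and 130 to 154 (-0.28, FDR 0.249). Both had FDRs under 0.25, as 156 of the 16029 genes tested did, but did not reach 1.5-fold. With the offset *Ltbp4* and *Ski* differed by -0.17 (FDR 0.655) and -0.16 (FDR 0.626). At an unadjusted p under 0.05, 8 genes were lower and 2 higher, against 6.26% and 5.34% of all genes, and with the offset 4 and 1, against 3.54% and 3.72%. The median was -0.10 without and -0.03 with the offset.

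Of the listed genes of vessels likewise none was called, where 0.231% of all genes were. Of 27 genes of the VEGF and angiopoietin pathway, 6 were lower at an unadjusted p under 0.05, against 6.26% of all genes, and 4 with the offset, against 3.54%, with medians of -0.07 and -0.08. The apelin receptor gene *Aplnr* was at 57.9 to 64.1 CPM in KO and 72.3 to 84.2 in WT lungs (-0.32, FDR 0.267; -0.30 and FDR 0.589 with the offset), and *Notch4* differed by -0.45 (FDR 0.272). Of 15 endothelial markers 13 were below 0, with a median of -0.09, and the fenestral gene *Plvap* (-0.47, FDR 0.220) became -0.24 with the offset (FDR 0.626). The summed level of these markers was 4477 to 4947 CPM in KO and 4922 to 5344 in WT lungs, with an overlap of the highest KO and the lowest WT lung.

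Of 34 glutathione and thioredoxin genes, the redox partners of the CLIC fold, none was called, where 0.231% of all genes were. Their median was 0.03. At an unadjusted p under 0.05 there was 1 gene on each side, *Prdx1* (0.16, FDR 0.408) and *Gpx4* (-0.19, FDR 0.427). Over all genes 5.34% were higher and 6.26% lower. Of 15 myofibroblast and contractile genes none was called, but 6 were higher and 0 lower at an unadjusted p under 0.05, against 5.34% higher over all genes, and 8 with the offset, against 3.72%. Smooth muscle myosin *Myh11* was at 232 to 253 CPM in KO and 186 to 220 in WT lungs (0.25, SE 0.08, FDR 0.272), and *Pdgfra*, the receptor of alveolar fibroblasts, at 565 to 608 and 485 to 543 (0.21, FDR 0.296). Neither pair of groups overlapped, where 3.82% of all genes had every KO lung above every WT lung. As p from the same values picked both genes, nothing is read from that. At 14 days *Myh11* and *Pdgfra* differed by 0.02 and 0.03. Of 10 fibroblast markers, *Pdgfra* among them, 8 were below 0, with a median of -0.11 (-0.14 with the offset). Of 30 collagen and elastic fiber genes none was called, and their median moved from -0.10 to 0.00 with the offset.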

How the data were processed

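RNA of lung tissue was sequenced by the authors, who aligned the reads to GRCm38 (mm10) with STAR and quantified genes with RSEM. They deposited the expected counts of RSEM as whole numbers without normalization, and FPKM values scaled for transcript length and depth. The annotation used, and whether counting used strand, are not given in the sources used here. The 8 tumor-free lungs held 5056592 to 8318711 counts, a depth that kept low genes out of the tests. Groups came from the labels. The members and gene lists were chosen with earlier results of these data known.

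The counts of all 20 lungs were fitted in edgeR 4.0.16 (R 4.3.3) with TMM normalization, filterByExpr, the quasi-likelihood test and 1 mean per group, which left 16 residual degrees of freedom. KO was then contrasted with WT in tumor-free lungs and, from other animals, in 14-day lungs, and the difference of both effects was tested. Genes were called at a Benjamini-Hochberg adjusted p (FDR) under 0.25 and 1.5-fold, the limits the authors used for lungs. The SE is the log2 fold change divided by the square root of F. Gene positions and exon GC content came from GENCODE M21 for 29244 genes, with 15950 of the tested genes having a GC value. The GC offset was a loess trend (span 0.5) of each library on GC. CPM values are TMM-normalized. Exact permutation tests, two-sided, were used for single values, on log2(FPKM + 1) for the *Clic* genes. Named are the *Clic* genes, of the called genes the 10 higher and the 10 lower ones ranked first by p, and called genes within 10 Mb of *Clic4*. Of each list, called members were to be named or, where none was, the 2 with the smallest p. This was not kept throughout, and only some exceptions are marked in the text. Some lists have fewer named members or none, and others have further ones. The tools were tested on simulated counts.

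The alternatives were DESeq2 1.42.0, RLE size factors, the 8 lungs alone, other filters, no 7S and mitochondrial genes, offsets for GC and length, a replicate block, other limits, TMM-normalized CPM or a pseudocount of 0.1 for the *Clic* genes, GC of the longest transcript, genes with at least 100 counts, and each tumor-free lung left out. The GC offset on 8 lungs and the slope against all 20 lungs were chosen after seeing the data. Same-numbered KO and WT lungs did not deviate from their group means together. The 12 tumors were not used here, and 1 gene is not reported here.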

Additional observations from a re-analysis of the deposited data

Results flagged for a closer look

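3 of 70 groups of 4 lungs held a sample far from the others, in a check in which chance marks about 1 group in 20. *Sepn1* in KO replicate 2 was at 33.9 CPM, where the other KO lungs were at 41.3 to 42.3. *Hist1h4h* in KO replicate 3 was at 3.23 CPM, where the others were at 5.04 to 5.12. *Clic1* in KO replicate 4 was at 72.7 FPKM, where the others were at 78.1 to 79.1.

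The genotype effect on *Rpl15-ps3* differed between tumor-free and 14-day lungs by -1.33 on the log2 scale, from -0.93 to 0.40 (edgeR interaction FDR 0.157).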

How the results depend on the processing

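Against 37 genes called, 246 (72 higher, 174 lower) were called in a fit of the 8 lungs alone, 9 (1 and 8) by DESeq2 on 20 lungs, of which 3 were among the 37, 7 (1 and 6) with no filter, 5 (1 and 4) with the GC offset, 4 (1 and 3) with the GC and length offset and 14 (2 and 12) with the GC offset on the 8 lungs, chosen after seeing the data. At an FDR under 0.05 and 1.5-fold 2 were called, and 156 at an FDR under 0.25 without a fold limit. DESeq2 on the 8 lungs called 43 (4 and 39), of which 7 were among the 37, and RLE size factors 26 (8 and 18), all among them. DESeq2 was run with its own filter, which gives genes of low counts no FDR. Of 26 genes, *Clic4*, *Sepn1* and the called genes named by rule, 3 had a DESeq2 value on 20 lungs and 6 on 8 lungs. The others could not be called there, so these overlaps do not show that the 37 genes failed in DESeq2. Leaving out 1 lung gave 2 to 76 calls.

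At an FDR under 0.05, where 3 genes passed, 6 did with the 8 lungs alone, 43 by DESeq2 on 20 lungs, 109 by DESeq2 on 8 lungs, and 1 to 3 with 1 lung left out. Genes without an FDR from DESeq2 are missing from its counts here as well, and what else caused these shifts was not tested.

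Whether the replicate numbers pair lungs by litter or batch is not given in the labels, and correlations across genes cannot decide it. Deviations from the group means correlated at -0.213 to -0.045 for lungs of the same number, across genes. With the replicate number as a block 2 genes were called and 1 had an FDR under 0.05, and 5 were called with the block and the GC offset together.

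Among *Clic4*, *Sepn1* and the called genes named in the text by rule, none changed sign under an alternative that tested it, but of 472 values over these 26 genes and the alternatives 265 lost the call. *Clic1* turned from -0.06 to 0.01 in log2(FPKM + 1) without WT replicate 1. *Clic4* was past the threshold in all 20 alternatives, at -1.51 to -1.40. The KO minus WT difference in GC slope stayed below 0 with each lung left out, at -0.166 to -0.116.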

Other observations

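Genes of lipid synthesis had differences above 0 in most cases. Of 28 cholesterol and fatty acid synthesis genes, 23 were above 0 with a median of 0.14 with and without the GC offset, and none was called. *Acaca*, which encodes the carboxylase that commits acetyl-CoA to fatty acids, was at 174 to 212 CPM in KO and 133 to 163 in WT lungs, a log2 difference of 0.36 (SE 0.08, edgeR FDR 0.168) that fell short of 1.5-fold, and was -0.05 at 14 days. *Fdps*, of the mevalonate pathway, differed by 0.36 (FDR 0.292) in tumor-free lungs and by 0.34 at 14 days (FDR 0.303).

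Epithelial markers were not called. Of 11 alveolar type 2 cell markers 9 were above 0 (median 0.07), and of 10 type 1 cell markers 4 (median -0.03), while *Ager* (-0.22, FDR 0.272) and *Aqp5* (-0.26, FDR 0.358) were lower without the offset and at -0.04 and -0.01 with it. At an unadjusted p under 0.05, 4 type 1 cell markers were lower and 2 type 2 cell markers higher, against 6.26% and 5.34% of all genes. With the offset 1 and 0 were, against 3.54% and 3.72%. All 7 club cell markers were above 0 (median 0.15, and 0.11 with the offset). Of 9 ciliated cell markers 7 were above 0 (median 0.16, and 0.14 with the offset). At an unadjusted p under 0.05, 3 were higher and 1 lower, against 5.34% and 6.26% of all genes. The axonemal dynein genes *Dnah5* (0.28, FDR 0.224) and *Dnah9* (0.26, FDR 0.272) had the smallest p. The nuclear factor I gene *Nfix*, which is GC-rich, was at 35.8 to 49.7 CPM in KO and 52.3 to 70.2 in WT lungs (-0.49, FDR 0.108), at -0.31 with the offset (FDR 0.434), and at 0.37 at 14 days (FDR 0.0803). Of 30 cytosolic ribosomal protein genes 25 were below 0 with a median of -0.10, which was -0.04 with the offset.

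Further immune genes were not called. Among 22 chemokine and cytokine genes the median was 0.05, and *Ccl17* was at 2.98 to 3.71 CPM in KO and 1.70 to 2.55 in WT lungs (0.80, FDR 0.316) and *Cxcl12*, which retains leukocytes through CXCR4, at 165 to 193 and 144 to 161 (0.23, FDR 0.335). The groups did not overlap for either gene, where 3.82% of all genes had every KO lung above every WT lung. At 14 days *Ccl17* and *Cxcl12* differed by 0.52 and 0.30. Of 8 dendritic cell markers 5 were above 0 and 3 below, with a median of 0.12 (0.07 with the offset). The lowest of them, the plasmacytoid dendritic cell gene *Siglech*, was at 4.36 to 10.3 CPM in KO and 10.4 to 14.6 in WT lungs (-0.79, FDR 0.396). Of the plasma cell list, *Jchain* differed by 0.60 (FDR 0.289) and *Ighm*, which B cells also express, by -0.67 (FDR 0.403). Of 18 genes of antigen presentation 16 were below 0 with a median of -0.09, led by p by *Tapbp* (-0.36, FDR 0.301).

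Among matrix genes, *Cemip*, which takes part in hyaluronan breakdown, was at 2.14 to 3.92 CPM in KO and 0.755 to 1.94 in WT lungs (1.17, SE 0.36, FDR 0.267; 1.18 and FDR 0.568 with the offset), and differed by 1.65 at 14 days (FDR 0.0543). Of 13 respiratory chain genes of mitochondrial DNA none was called, 7 were above 0 and 6 below, with a median of 0.007. With the offset the median was -0.10. At an unadjusted p under 0.05, 4 were then lower and 1 higher, against 3.54% and 3.72% of all genes. Among them, the GC-poor transcript *mt-Nd3* was at 117 to 134 CPM in KO and 78.2 to 113 in WT lungs (0.37, FDR 0.267). It was at 0.23 with the offset (FDR 0.654). Of 9 selenoprotein genes tested, *Sepn1* alone had an FDR under 0.25, as 156 of the 16029 genes tested did, and the median was 0.06.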
